A study of Mus musculus with 21 samples.

Results

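The genes described here are 10 genes that encode the branch-site proteins of the mouse spliceosome. They are Sf1, the SF3a genes Sf3a1, Sf3a2 and Sf3a3, and the SF3b genes Sf3b1, Sf3b3, Sf3b4, Sf3b5, Sf3b6 and Phf5a. They were chosen by name. Merged long-read transcripts were assigned to them by overlap of exons on the same strand with GENCODE vM21, and 9 of the 10 received at least 1 transcript. These 9 are among 10917 genes with a merged transcript, and they held 14 of the 22612 merged transcripts. Sf3a2 received none, so its level is not given.

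Amplified cDNA of pooled gametes and embryos was sequenced as 14 short-read libraries, 2 for each of 7 stages, and as 7 long-read pools, 1 per stage. Sperm came from DBA/2J males by the sample labels, whereas the protocol text names DBA/2N. Oocytes came from C57/BL6J females, and embryos from those females crossed to DBA/2J males. Females were 3 to 5 weeks old and superovulated with PMSG and hCG. Collection fell 20 h after hCG for oocytes, 24 to 26 h for 1-cell, 46 to 48 h for 2-cell, 54 to 58 h for 4-cell, 68 to 70 h for 8-cell embryos and 94 to 96 h for blastocysts, after culture in KSOM. No stage carried a mutation or a drug. In such pools, fewer cells of a type and less RNA per cell cannot be told apart.

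Splicing of an intron begins when the branch-site sequence near its 3′ end is recognised. SF1 binds that sequence first, together with the U2AF proteins at the adjacent pyrimidine tract and AG. SF1 then leaves, and the U2 snRNP binds through base pairing of its RNA, with SF3a and SF3b holding the branch-site adenosine in place. SF3B1 and PHF5A form the pocket around that adenosine, and drugs that block splicing bind there.

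Several of the sequences at issue in these data can be shown directly. In Sf3b1, the deposited merged transcripts differed in exon 2 of its annotated coding transcript of 25 exons, ENSMUST00000027127 (chr1:55019234-55019400, minus strand, mm10, a coding exon of 167 bases), from which 1 of them lacks 119 bases (capitals), and in the intron after exon 4 (chr1:55014563-55016375, 1813 bases), whose ends are given with the intron in capitals. For Phf5a, the coding end of exon 1 and the whole of exon 2 are shown beside the part of an added exon that GENCODE holds (capitals). For Sf3b6, the annotated part of an added exon is shown because its share changed between stages.
Sf3b1 exon 2: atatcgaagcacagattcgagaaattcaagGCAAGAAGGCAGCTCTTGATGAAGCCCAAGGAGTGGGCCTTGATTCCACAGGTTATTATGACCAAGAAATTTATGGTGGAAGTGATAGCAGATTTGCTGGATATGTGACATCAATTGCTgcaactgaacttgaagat
Sf3b1 intron, 5′ end: tttgcagatgGTAATTCTTTCCCACTTTTC
Sf3b1 intron, 3′ end: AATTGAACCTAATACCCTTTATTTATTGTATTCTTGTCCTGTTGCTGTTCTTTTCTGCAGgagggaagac
Phf5a exon 1, last 30 bases: tgattttctgccgcaagcaggctggtgtgg
Phf5a added exon, 73 of 84 bases: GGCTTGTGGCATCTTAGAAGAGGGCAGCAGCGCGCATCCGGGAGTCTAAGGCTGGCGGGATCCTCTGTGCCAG
Phf5a exon 2: ctatcggaagactgtgtgaaaaat
Sf3b6 added exon, 150 of 177 bases: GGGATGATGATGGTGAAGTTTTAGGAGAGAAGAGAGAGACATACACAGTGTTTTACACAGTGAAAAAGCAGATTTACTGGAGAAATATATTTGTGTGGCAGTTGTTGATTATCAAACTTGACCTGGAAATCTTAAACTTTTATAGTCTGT

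Levels are TPM, the authors' salmon estimate of each transcript's share of all transcripts, corrected for transcript length, summed over the merged transcripts of a gene. TPM keeps no read depth, so no interval from counting is given. Stages were tested in limma, fitted to log2(TPM + 1) in the 12 oocyte and embryo libraries, and an adjusted p under 0.05 (Benjamini-Hochberg over 10000 genes) was called. Replicates differed most at the 2-cell stage (median SD over genes 1.04 on the log2 scale) and least at the 4-cell stage (0.19). At the 2-cell stage, 5 measured 2-cell markers summed to 19.5 TPM in replicate 1 and 499 TPM in replicate 2, against 43.1 and 35.7 TPM at 1-cell and 18.7 and 20.0 TPM at 4-cell. The 6 oocyte markers summed to 74.1 TPM in 2-cell replicate 1 and 711 TPM in replicate 2, against 1933 and 1616 TPM at 1-cell and 89.5 and 116 TPM at 4-cell. In both lists 2-cell replicate 1 thus lay near the 4-cell libraries. The branch-site genes did not follow the markers: for each one measured, 2-cell replicate 2 lay nearer the 4-cell mean. Phf5a held 57.04 and 226 TPM in 2-cell replicates 1 and 2, against 437 and 442 TPM at 4-cell. Sf3b6 held 28.1 and 184 TPM, against 307 and 283 TPM. The differences into and out of the 2-cell stage below include 2-cell replicate 1 unless stated. Among the blastocyst libraries, 7 blastocyst markers summed to 9429 and 35475 TPM. Oocyte markers summed to 4500 and 16437 TPM in oocytes and to at most 14.2 TPM in blastocysts. None of the 5 cumulus markers had a merged transcript.

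Sf1 (chr19:6363690-6378030, plus strand) encodes the branch-site binding protein itself. The oocyte libraries held 1.36 and 5.75 TPM, and the 1-cell libraries 11.4 and 9.35 TPM. The 2-cell libraries held 436 and 35.2 TPM. Oocytes were thus lowest and did not overlap with 1-cell embryos, while both 2-cell libraries lay above both 1-cell libraries and differed from each other 12.4-fold. The 2-cell library with 436 TPM was the one with 19.5 TPM of 2-cell markers, and the part of that difference between the libraries in the result was not tested. The 4-cell libraries held 61.4 and 34.4 TPM, the 8-cell libraries 37.1 and 53.2 TPM, and the blastocysts 26.6 and 65.4 TPM. From the 2-cell stage on, neighbouring stages in the order of levels overlapped. Sperm held 31.9 and 92.4 TPM, the second highest level of the 7 stages. Sf1 rose from 1-cell to 2-cell by 3.47 ± 1.00 (SE) on the log2 scale (limma, adjusted p = 0.0165). Without 2-cell replicate 1 the difference was 1.68 (adjusted p = 0.14). It was 3.60 without 1-cell replicate 1 (adjusted p = 0.0672) and 3.34 without 1-cell replicate 2 (adjusted p = 0.095). The call also ended with quantile normalization (2.63, adjusted p = 0.0972) and when each stage was weighted by the spread of its own libraries (adjusted p = 0.0652), and it held in 7 of 12 alternatives. The study singled out Sf1 on these libraries, so this rise is not independent evidence. Sf1 was also higher in blastocysts than in oocytes, by 3.42 ± 1.00 (adjusted p = 0.01), a call lost without oocyte replicate 1 (2.66) or blastocyst replicate 2 (2.79) and with quantile normalization (2.28).

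Of the SF3a genes, Sf3a1 and Sf3a3 encode the subunits that link SF3a to the U2 snRNP and to SF3b. Sf3a1 (chr11:4160350-4182541, plus strand) had the lowest mean TPM of the 9 genes at each stage from 2-cell to blastocyst, although single libraries of other genes lay lower (Sf3b3 in 2-cell replicate 1, and Sf3b6, Sf3b3 and Sf3b1 in blastocyst replicate 2). Its libraries held 3.63 and 12.6 TPM in oocytes, 19.4 and 6.14 TPM at 1-cell, and 8.10 and 16.2 TPM at 2-cell. Later libraries held 20.1 and 18.3 TPM at 4-cell, 13.4 and 19.4 TPM at 8-cell, and 24.1 and 22.5 TPM in blastocysts. Blastocysts lay above every other stage, and all neighbouring stages below them overlapped. Sperm held 3.85 and 2.41 TPM, the lowest stage. Sf3a1 passed the threshold at no transition. Between oocyte and blastocyst its difference was 1.61 ± 0.76 (adjusted p = 0.0866), and it was 2.39 (adjusted p = 0.0409) without oocyte replicate 2.

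Sf3a3 (chr4:124714776-124732460, plus strand) had a step between the 2-cell and the 4-cell stage. The libraries held 9.60 and 14.4 TPM in oocytes, 24.1 and 8.78 TPM at 1-cell, and 21.5 and 31.3 TPM at 2-cell. At 4-cell they held 96.2 and 103 TPM, at 8-cell 72.9 and 71.0 TPM, and in blastocysts 70.3 and 30.6 TPM. The 4-cell libraries were above the 8-cell libraries, and the latter above blastocysts, without overlap. Sperm held 11.6 and 2.25 TPM, the lowest mean. The difference from 2-cell to 4-cell was 1.90 ± 0.71 and did not pass the threshold (adjusted p = 0.127). Sf3a3 was higher in blastocysts than in oocytes by 1.89 ± 0.71 (adjusted p = 0.0365), a call that held in 5 of 12 alternatives. It was lost without oocyte replicate 1 (1.62), oocyte replicate 2 (2.16) or blastocyst replicate 1 (1.30), with quantile normalization (1.11, adjusted p = 0.136), with only the 4 libraries (adjusted p = 0.0969), with the replicate block (adjusted p = 0.0516) and with the weighted spread (adjusted p = 0.0592).

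Sf3b1 (chr1:54985169-55027481, minus strand) encodes the largest SF3b protein, whose helical repeats close over the branch site. Oocytes held 75.1 and 270 TPM, the highest mean of the 7 stages, and 1-cell embryos 68.4 and 53.1 TPM. The 2-cell libraries held 14.03 and 40.4 TPM. The 4-cell libraries held 128 and 122 TPM, the 8-cell libraries 128 and 105 TPM, and the blastocysts 115 and 20.5 TPM. Both 2-cell libraries lay below both 1-cell and both 4-cell libraries, while blastocyst replicate 2 lay between the 2-cell libraries. Sperm held 23.8 and 19.5 TPM, the lowest mean of the 7 stages. Neither difference at the 2-cell stage passed the threshold, with -1.30 ± 0.89 into that stage (adjusted p = 0.288) and 2.34 ± 0.89 out of it (adjusted p = 0.132). Long-read transcripts of Sf3b1 were mostly pieces, so its levels here and below need not be those of the full mRNA. In oocyte libraries quantified on the oocyte pool's own transcripts, the 5′ piece that ends in exon 11 had 133 and 765 TPM. The 3′ pieces had 21.6 and 26.2 TPM (12 exons) and 77.5 and 22.6 TPM (1 exon). At 4-cell, the 5′ piece had 156 and 130 TPM and the 3′ piece 113 and 113 TPM. Sf3b1 alone of the 9 genes had a difference below 0 from oocyte to blastocyst (-1.53 ± 0.89, adjusted p = 0.164). That difference was -2.74 (adjusted p = 0.0355) without blastocyst replicate 1.

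Sf3b3 (chr8:110810239-110846787, minus strand) encodes a scaffold protein built of beta propellers that carries SF3B1. It was lowest in oocytes, at 3.83 and 1.91 TPM, followed by 17.4 and 8.14 TPM at 1-cell and 6.43 and 22.8 TPM at 2-cell. The 4-cell libraries held 64.1 and 56.1 TPM, the 8-cell libraries 53.6 and 50.4 TPM, and the blastocysts 61.4 and 11.9 TPM. Sperm held 7.67 and 11.4 TPM. Oocytes lay below every other stage, and both 4-cell libraries lay above every library of another stage except blastocyst replicate 1. The difference from 2-cell to 4-cell was 2.196 ± 0.84 (adjusted p = 0.134), and 3.04 (adjusted p = 0.0372) without 2-cell replicate 2. Sf3b3 was higher in blastocysts than in oocytes by 2.92 ± 0.84 (adjusted p = 0.00926), a call lost without oocyte replicate 2 (2.56) or blastocyst replicate 1 (1.79). These levels rest on parts of the gene: the merged set held a transcript of 9 exons at its 3′ end and a single-exon transcript of 576 bases. The latter overlaps a single-exon transcript that GENCODE lists (ENSMUST00000212843).

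Phf5a (chr15:81864520-81871911, minus strand) encodes a small zinc-finger protein of SF3b and had the highest mean TPM of the 9 genes at the 1-cell, 4-cell and 8-cell stages. Oocytes held 366 and 48.7 TPM, 1-cell embryos 418 and 209 TPM, and 2-cell embryos 57.04 and 226 TPM. The 4-cell libraries held 437 and 442 TPM, the 8-cell libraries 503 and 522 TPM, and the blastocysts 245 and 93.4 TPM. The 8-cell libraries lay above the 4-cell libraries, and the 4-cell libraries above every remaining library. The remaining stages from oocyte to blastocyst overlapped. Sperm held 21.8 and 6.11 TPM, below all other libraries. No transition from oocyte to blastocyst passed the threshold. The largest differences were 1.94 ± 0.98 from 2-cell to 4-cell (adjusted p = 0.233) and -1.75 ± 0.98 between 8-cell embryos and blastocysts (adjusted p = 0.465).

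Sf3b4 and Sf3b6 encode the SF3b proteins with RNA recognition motifs that touch the intron upstream of, and at, the branch site. Sf3b4 (chr3:96172332-96177564, plus strand) held 5.59 and 49.7 TPM in oocytes, 36.6 and 16.3 TPM at 1-cell, and 15.6 and 19.6 TPM at 2-cell. It held 74.7 and 60.6 TPM at 4-cell, 93.2 and 158 TPM at 8-cell, and 110 and 357 TPM in blastocysts. The 4-cell libraries lay above all oocyte, 1-cell and 2-cell libraries and below both 8-cell libraries. In sperm the libraries differed 9.25-fold, at 16.9 and 156 TPM. Sf3b4 was higher in blastocysts than in oocytes by 3.45 ± 0.92 (adjusted p = 0.00603), a call lost without oocyte replicate 1 (1.98) or blastocyst replicate 2 (2.61). No single transition passed the threshold.

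Sf3b6 (chr12:4817544-4827659, plus strand) had its lowest means in oocytes and 1-cell embryos and its highest at 4-cell. Oocytes held 7.70 and 1.09 TPM, 1-cell embryos 5.87 and 2.54 TPM, and 2-cell embryos 28.1 and 184 TPM. The 4-cell libraries held 307 and 283 TPM, the 8-cell libraries 289 and 140 TPM, and the blastocysts 127 and 8.90 TPM. All libraries from the 2-cell stage on lay above all oocyte and 1-cell libraries. Sperm held 12.3 and 2.46 TPM. Sf3b6 rose from 1-cell to 2-cell by 3.90 ± 1.15 (adjusted p = 0.0189). The call was lost without 1-cell replicate 1 (4.37, adjusted p = 0.0559), 1-cell replicate 2 (3.42, adjusted p = 0.132) or 2-cell replicate 2 (2.56, adjusted p = 0.118), and with the spread weighted by stage (adjusted p = 0.0674). The blastocyst libraries differed 14.3-fold, the largest ratio between replicates for any of the 9 genes. Between oocyte and blastocyst the difference was 3.06 ± 1.15 (adjusted p = 0.0363), and 1.22 (adjusted p = 0.434) without blastocyst replicate 1 or 2.03 (adjusted p = 0.254) without oocyte replicate 2. That call also ended with quantile normalization (2.03, adjusted p = 0.17) and with no filter on low values (adjusted p = 0.0645).

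Sf3b5 (chr10:13005343-13009183, plus strand) encodes the smallest SF3b protein, bound to SF3B3. Oocytes held 120 and 66.8 TPM, and 1-cell embryos 24.2 and 10.96 TPM, the lowest stage. The 2-cell libraries held 292 and 141 TPM. Both 1-cell libraries lay below every other library of the 14. The 4-cell libraries held 198 and 165 TPM, the 8-cell libraries 257 and 317 TPM, and the blastocysts 205 and 614 TPM, while sperm held 87.8 and 257 TPM. Sf3b5 rose from 1-cell to 2-cell by 3.55 ± 0.77 (adjusted p = 0.00361), and this call was kept without each of the 4 libraries (highest adjusted p = 0.0446). The difference from oocyte to 1-cell was -2.38 ± 0.77 (adjusted p = 0.256). Between oocyte and blastocyst the difference was 1.97 ± 0.77 (adjusted p = 0.0442), a call that held in 4 of 11 alternatives. It was lost without oocyte replicate 1 (2.39), oocyte replicate 2 (1.55) or blastocyst replicate 2 (1.18), with quantile normalization (1.47, adjusted p = 0.103), with only the 4 libraries (adjusted p = 0.115), with the replicate block (adjusted p = 0.0602) and with the weighted spread (adjusted p = 0.0656).

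**Figure D1:**
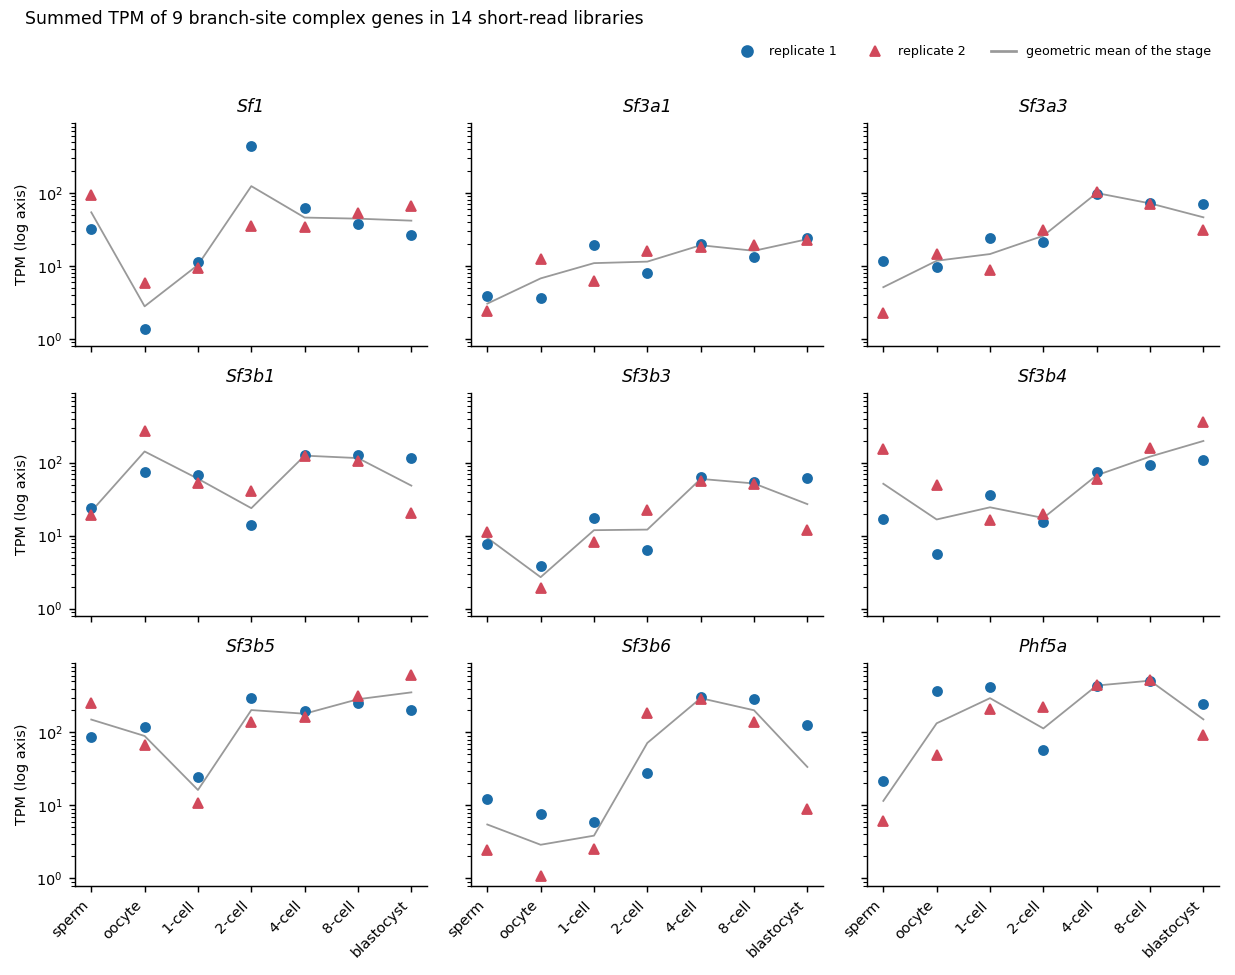
TPM of the 9 genes with a merged transcript (log axis) in the 2 short-read libraries of each of 7 stages, with replicate 1 as circles, replicate 2 as triangles and a line through the geometric mean of each stage. Replicates lie close together at 4-cell for all 9 genes (at most 1.78-fold apart, for Sf1) and farther apart in oocytes, at 2-cell and in blastocysts (up to 8.90-fold for Sf3b4, 12.4-fold for Sf1 and 14.3-fold for Sf3b6).

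Taking the 9 genes by transition, none was called from oocyte to 1-cell, where 0.38% of all tested genes were called. With limma, 1 of the 9 (Sf3b5) had an unadjusted p under 0.05 there. Both 1-cell libraries lay above both oocyte libraries for 2 of 9 (Sf1 and Sf3b3, against 28.6% of all genes) and below them for 2 (Sf3b1 and Sf3b5, against 9.02%). From 1-cell to 2-cell, 3 of 9 were called, all higher (Sf1, Sf3b5 and Sf3b6), beside 32.3% of all tested genes called in either direction and 26.1% called higher, so the count was close to that over all genes. Libraries of the 2 stages did not overlap for these 3 and, in the lower direction, for Sf3b1 (42.7% of all genes higher and 15.4% lower). The median difference of the 9 was 0.05, below that of all genes (0.72). The 6 others ranged from -1.37 (Phf5a) to 0.78 (Sf3a3). With quantile normalization, which moved the median of all genes to -0.12, 2 of 9 were called and 47.5% of all calls were higher in place of 80.8%.

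From 2-cell to 4-cell none of the 9 was called by limma (3.4% of all genes), and 3 had an unadjusted p under 0.05 (Sf3a3, Sf3b1 and Sf3b3). Their median difference was 1.90, against 0.04 over all genes. In 7 of the 9, every one except Sf1 and Sf3b5, both 4-cell libraries lay above both 2-cell libraries, a pattern that 30.7% of all genes showed. None of the 9 lay lower without overlap, as 22.1% of all genes did. Without 2-cell replicate 2, 2 of 9 were called, Sf3b3 (higher) and Sf1 (lower, -3.22, adjusted p = 0.0259). Without 2-cell replicate 1 the difference of Sf1 had the opposite sign (0.38), so the direction of Sf1 at this transition rested on 1 library. Summed over the 9 genes, the 2-cell libraries held 879 and 716 TPM, and the 4-cell libraries 1387 and 1284 TPM.

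From 4-cell to 8-cell none of 9 was called (1.67% of all genes), and none had an unadjusted p under 0.05. The differences ran from -0.55 (Sf3b6) to 0.84 (Sf3b4). The libraries did not overlap for 3 of 9 in the higher direction (Phf5a, Sf3b4 and Sf3b5, against 22.9% of all genes) and for 2 in the lower (Sf3a3 and Sf3b3, against 47.3%). From 8-cell to blastocyst none was called either (3.0% of all genes), and Sf3b6 had the only unadjusted p under 0.05 (-2.51 ± 1.15, adjusted p = 0.337). Without overlap, 1 of 9 was higher (Sf3a1, against 19.7% of all genes) and 3 were lower (Sf3a3, Sf3b6 and Phf5a, against 28.1%). The median difference was -0.62 there, against -0.14 over all genes.

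From oocyte to blastocyst 6 of 9 were called, all higher (Sf1, Sf3a3, Sf3b3, Sf3b4, Sf3b5 and Sf3b6), beside 53.4% of all genes called and 35.4% called higher. Libraries did not overlap for 7 of 9, the 6 called ones and Sf3a1, all higher (48.5% of all genes), and for none in the lower direction (26.8%). The median difference was 1.97, against 0.82 over all genes. The count fell to 2 with quantile normalization, which put the median of all genes at 0.07 and the share of all calls that were higher at 50.2% in place of 66.3%. It also fell to 2 without oocyte replicate 1. Without oocyte replicate 2 it was 3, and it was 3 without blastocyst replicate 2.

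**Figure D2:**
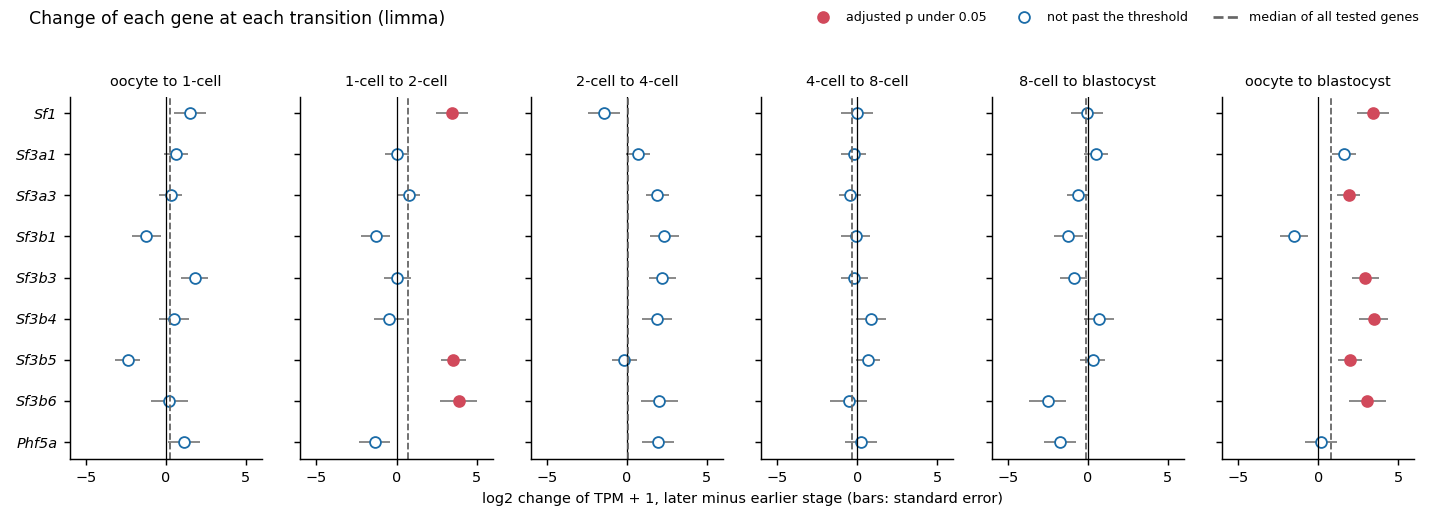
Log2 change of TPM + 1, later minus earlier stage, for 9 genes (rows) at 5 transitions and from oocyte to blastocyst (panels), with bars for the standard error, filled points for an adjusted p under 0.05 by limma, open points for the rest, and a dashed line at the median of all tested genes. Filled points occur at 1-cell to 2-cell (3) and oocyte to blastocyst (6), and 7 of the 9 open points at 2-cell to 4-cell lie right of 0.

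Sperm were compared with oocytes in a fit over all 14 libraries and 10735 genes. Of the 9 genes, 3 were called, beside 53.6% of all genes, of which 17.4% were higher and 36.2% lower in oocytes as shares of all genes. The libraries did not overlap for 2 of 9 higher in oocytes (Phf5a and Sf3b1, against 26.3%) and for 2 lower (Sf1 and Sf3b3, against 49.4%). Phf5a was higher in oocytes by 3.41 ± 1.02 (adjusted p = 0.00967) and Sf3b1 by 2.67 ± 0.89 (adjusted p = 0.0185), whereas Sf1 was lower by -3.80 ± 1.01 (adjusted p = 0.0047). None of the 3 was called without sperm replicate 2, where the values were 2.57 for Phf5a, 2.54 for Sf3b1 and -3.04 for Sf1. Without oocyte replicate 1, Sf3b1 was called and Phf5a (1.96) and Sf1 (-3.04) were not. Sf3b1 lost its call without oocyte replicate 2 (1.76) and without sperm replicate 1 (2.81, adjusted p = 0.0508), where Sf3b4 was called lower in oocytes (-3.11). It was also lost with only the 4 libraries (adjusted p = 0.0532) and with the weighted spread (adjusted p = 0.0689). In sperm libraries 3 blood markers summed to 6348 and 1690 TPM and 3 epididymal markers to 2049 and 343 TPM, while in oocytes the blood markers reached at most 1.11 TPM and the epididymal ones 6.18 TPM. The part of those cells in the sperm values was not tested. With quantile normalization, which moved the median of all genes from -0.90 to 0.01, 5 of 9 were called, the 2 added ones being Sf3a1 (2.31) and Sf3a3 (1.93), both higher in oocytes, and 50.2% of all calls were higher in place of 32.4%.

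Levels of the 9 genes moved together only in part. Over the 12 libraries from oocyte to blastocyst, 15 of the 36 pairs of genes had a Pearson r above 0.5 on the log2 scale, 4 had one below 0, and the median was 0.439. The closest pairs were Sf3a3 with Sf3b3 (r = 0.917), Sf3a3 with Sf3b6 (0.883) and Sf3b3 with Sf3b6 (0.88). Sf1 and Sf3b1 had the lowest (r = -0.516). These r values describe 12 libraries, of which 2 come from each stage. The same shares over all pairs of tested genes were not computed, so nothing particular to these genes is read from them. The 3 tested genes most like Phf5a over these libraries were Fopnl (r = 0.913), Ints12 (0.912) and Snrpe (0.91), and those most like Sf1 were Tmem185b (0.976), Rfng (0.974) and Uck2 (0.973), out of 10000 tested genes. Sf1 held 436 TPM in 2-cell replicate 1 and at most 65.4 TPM in any other of these libraries. The part of that library in the r values of Sf1 was not tested.

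Other spliceosomal genes were taken as 3 lists: 20 U2 and branch-site partners, 7 proteins of the minor U11/U12 snRNPs, and 16 proteins of U1, U5 and the tri-snRNP, of which 15 were measured. From 1-cell to 2-cell, 4 of 20 partners were called higher and none lower, 3 of 7 U11/U12 proteins higher and none lower, and 3 of 15 others higher and 1 lower, beside 26.1% of all genes called higher. The partners and the third list thus lay below that share, and nothing particular to the lists is read from these counts. Snrpc, a U1 protein, rose from 7.69 and 4.01 to 119 and 355 TPM (4.97 ± 0.75, adjusted p = 0.000364). Snrnp25, a U11 protein, rose from 3.0 and 0.342 to 23.5 and 193 TPM (4.90 ± 1.01, adjusted p = 0.00256). Prpf6, a tri-snRNP bridging protein, fell from 87.6 and 84.9 to 5.96 and 21.4 TPM (-2.81 ± 0.77, adjusted p = 0.0129). In the other 4 single transitions none of the 42 measured genes of the 3 lists was called by limma, and 5 (oocyte to 1-cell), 6 (2-cell to 4-cell), 1 (4-cell to 8-cell) and 1 (8-cell to blastocyst) had an unadjusted p under 0.05.

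From oocyte to blastocyst, 5 of 20 partners were called higher and 1 lower, 3 of 7 U11/U12 proteins higher and 1 lower, and 8 of 15 others higher and 1 lower, beside 35.4% of all genes called higher and 53.4% called in either direction. Their median differences were 0.74, 1.08 and 2.17, against 0.82 over all genes. Zmat5, a protein of the U11/U12 snRNP, rose by 5.63 ± 0.98 (adjusted p = 0.000327) and Snrpc by 5.45 ± 0.75 (adjusted p = 5.13e-05), while Pdcd7, of the same U11/U12 particle, fell by 3.11 (adjusted p = 0.00146) and Prpf6 by 2.67 (adjusted p = 0.00913). From sperm to oocyte, 5 of 20 partners were called higher and 5 lower, 2 of 7 U11/U12 proteins higher and 1 lower, and 1 of 15 others higher and 3 lower, beside 17.4% of all genes called higher and 36.2% called lower. Pdcd7 (5.72) and Prpf6 (3.65) were higher in oocytes, and Puf60 (-4.29) and Rbm5 (-4.21), both regulators of 3′ splice-site choice, were lower. Sf3b2, the SF3b subunit outside the 10 genes, held 22.2 and 48.0 TPM in oocytes, 57.4 and 13.4 TPM at 1-cell, 13.4 and 22.5 TPM at 2-cell, 30.4 and 28.4 TPM at 4-cell, 39.9 and 52.1 TPM at 8-cell, and 52.7 and 56.8 TPM in blastocysts.

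The upstream sequences of 7 of the 10 genes are in the RefSeq promoter table (GRCm38.p6), and those of Phf5a, Sf3b4 and Sf3b5 are not listed there. The 2 genes of the table that rose from 1-cell to 2-cell are shown up to the annotated start, with matches to 3 motifs in capitals.
Sf3b6, chr12:4817358-4817543, plus strand: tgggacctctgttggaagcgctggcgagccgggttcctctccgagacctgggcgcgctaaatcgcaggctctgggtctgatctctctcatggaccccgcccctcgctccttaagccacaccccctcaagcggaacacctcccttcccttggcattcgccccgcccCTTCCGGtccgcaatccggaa
Sf1, chr19:6363440-6363689, plus strand: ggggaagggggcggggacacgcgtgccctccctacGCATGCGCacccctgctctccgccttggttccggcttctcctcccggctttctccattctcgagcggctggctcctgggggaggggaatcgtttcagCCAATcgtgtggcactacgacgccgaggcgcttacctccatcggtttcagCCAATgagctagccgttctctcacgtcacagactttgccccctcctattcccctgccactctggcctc

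The motifs, searched on both strands in 300 bases around each start, were CCGGAAG, a core bound by ETS factors, CCAAT, the box bound by NF-Y, and GCATGCGC, a core of the NRF1 site. They were chosen after the sequences had been seen, so the shares below cannot show an enrichment and none is read from them. The motifs do not overlap in the stretches shown. CCGGAAG was in 5 of the 7 genes (Sf3a1, Sf3a2, Sf3a3, Sf3b3 and Sf3b6), and in 8.86% of the 32851 windows of the table. Sf3b6 held it on both strands, beginning 85 and 70 bases before the RefSeq start, and the second match runs over the end of the stretch shown. Sf1 had no CCGGAAG in its window and was the only one of the 7 with GCATGCGC, which was in 2.71% of all windows. CCAAT occurred in Sf1 and Sf3b3, and in 37.4% of all windows.

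The long-read pools showed how completely each mRNA was read. Phf5a, Sf3a3, Sf3b1 and Sf3b6 had a transcript in all 7 pools, Sf3b5 in 6 (every pool but 1-cell, where its short-read level was lowest), Sf3b4 in 5, Sf1 and Sf3b3 in 3, Sf3a1 in 2 and Sf3a2 in none. The most genes were found in the 8-cell pool (9 of 10) and the fewest in the oocyte and 1-cell pools (5 each). By the study's quality figures the pools differed in the number and length of their reads. The part of that in what each pool held was not tested. The intron chain of an annotated transcript was read in all 7 pools for Phf5a and Sf3b6, in 6 for Sf3a3, in 5 for Sf3b4 and in 2 for Sf3b1. In the 1-cell pool the Sf3b1 match was only the 3 exons of ENSMUST00000190175, and the coding chain of 25 exons was read in sperm only. For Sf1, the full chain of 13 exons (that of ENSMUST00000113487) came from the 2-cell pool only, and the 4-cell and 8-cell pools held pieces of 4 exons or 1 exon. No Sf1 transcript was read from sperm, although the sperm libraries held 31.9 and 92.4 TPM. In the 2-cell libraries quantified on the 2-cell pool's own transcripts, that Sf1 transcript had 320 and 22.8 TPM, so the gap between the replicates was there too.

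Sf3b1 was read mostly in pieces. In all 7 pools, a 5′ piece stopped within exon 11 of the 25 annotated exons, 24.3 kb from the annotated 5′ end, with its last base between chr1:55003171 and 55003175 in 9 of 9 such transcripts. Of these 9, 7 had 11 exons. Only 1 transcript, in the sperm pool, ran from the first to the last exon. The 2 merged transcripts of Sf3b1 nevertheless cover the gene from end to end, and each carries a feature that 1 pool transcript showed. The merged transcript of 24 exons (TCONS_00000892) keeps the intron after exon 4, as 1 sperm transcript did, while 10 transcripts from 7 pools spliced it. GENCODE lists the same retained form as ENSMUST00000187500. The merged transcript of 26 exons (TCONS_00000893) lacks the 119 bases of exon 2, as 1 8-cell transcript did, while 10 transcripts from 7 pools had the exon unbroken. The retained intron has GT and AG at its ends. The 119 bases begin with GC and end with CT, the first 4 bases of the stretch recur directly after it, and no equivalent placement gives GT and AG.

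**Figure D3:**
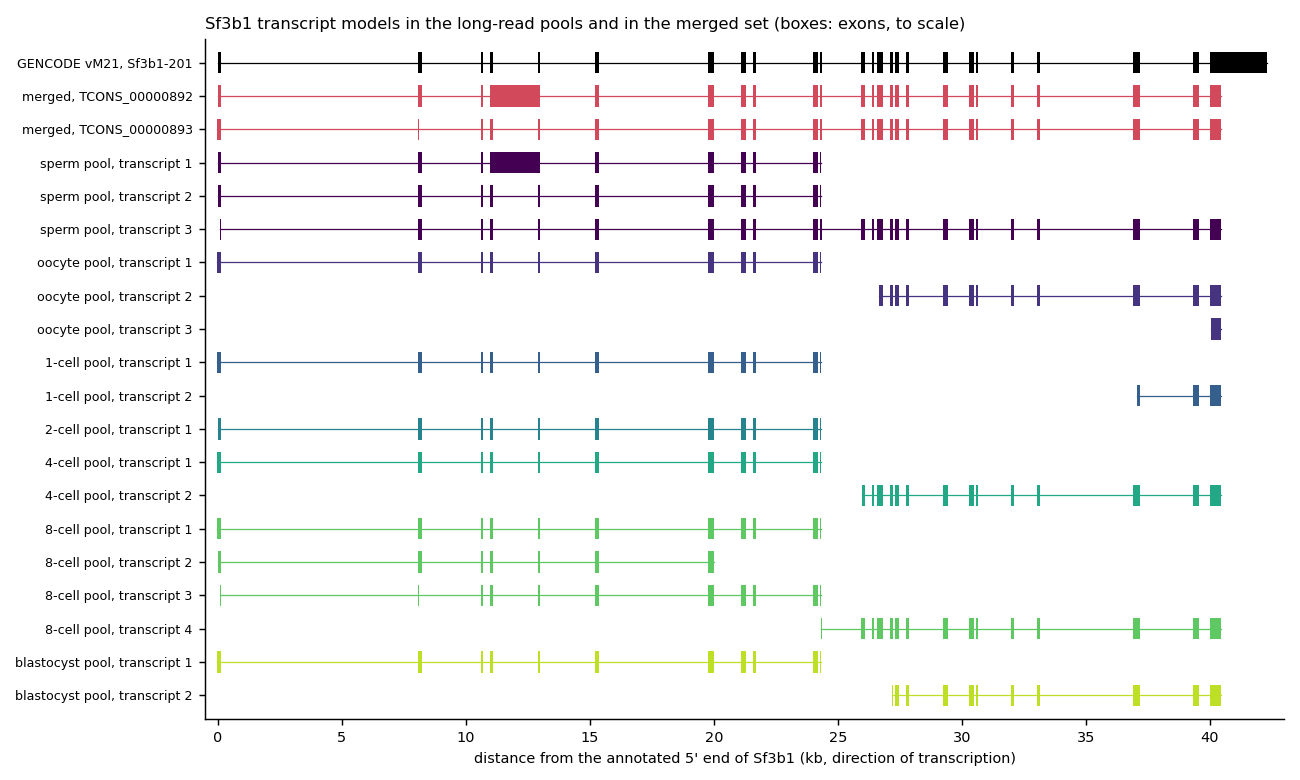
Exons of Sf3b1 (boxes, to scale) by distance in kb from the annotated 5′ end, for the GENCODE coding transcript (25 exons), the 2 merged transcripts and every transcript of the 7 long-read pools. The 5′ pieces stop at 24.3 kb in all 7 pools, 1 sperm transcript spans the gene, and the retained intron (a wide box) is in 1 sperm transcript and in TCONS_00000892.

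Because no merged transcript joins the annotated exon 2 to a spliced intron 4, the shares of the 2 Sf3b1 models cannot be read as the share of RNA that retains the intron or lacks the 119 bases. With that limit, TCONS_00000892 took 51.6 and 76.5% of Sf3b1 TPM in sperm and 20.7 and 26.5% in oocytes. It took 27.4 and 23.5% at 1-cell, 36.2 and 12.8% at 2-cell, 19.7 and 14.2% at 4-cell, 17.2 and 24.9% at 8-cell, and 26.7 and 26.3% in blastocysts. Both sperm libraries lay above all 12 others. Between stages from oocyte to blastocyst, no change of the share passed the threshold (lowest adjusted p = 0.66).

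Of the isoform shares tested in the merged set, only those of Sf3b6 were called. TCONS_00004203 carries an added exon of 177 bases (chr12:4818901-4819077) between exons 1 and 2 of the annotated mRNA, of which GENCODE holds 150 in ENSMUST00000218705, a transcript with no annotated coding sequence. Read in the frame of exon 1, those 150 bases held 4 stop codons, the first at base 22. Only the oocyte pool contained this form among the long reads, where its own-stage level was 0.511 and 0.0894 TPM. Over the merged set, it took 6.08 and 9.40% of Sf3b6 TPM in oocytes and 32.9 and 24.4% at 1-cell. From the 2-cell stage on it took between 0.70 and 1.64% in every library. In sperm it took 6.47 and 28.2%. Its share fell from 1-cell to 2-cell by 4.23 on the log2 scale of the ratio to the other isoform (SE 0.93, adjusted p = 0.0156), where 15.7% of all 10413 tested isoforms were called, 7.46% higher and 8.19% lower. The isoform without the exon mirrored it (4.23 higher). The fall coincided with the rise of the annotated form, and the 1-cell shares rest on a gene total of 5.87 and 2.54 TPM. The call was lost without 1-cell replicate 1 (adjusted p = 0.0805), 1-cell replicate 2 (adjusted p = 0.0693) or 2-cell replicate 2 (adjusted p = 0.0562).

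In Phf5a, the added exon of 84 bases (chr15:81871593-81871676, between exons 1 and 2 of the annotated mRNA) was read in the 8-cell pool only, while 9 transcripts from 7 pools joined exon 1 to exon 2. GENCODE holds 73 of its bases in ENSMUST00000160415, which has no annotated coding sequence. The length is a multiple of the codon length, and in the frame of exon 1 the 73 bases held no stop codon. TCONS_00007468, which carries it, took 4.10 and 17.4% of Phf5a TPM in sperm and 0.36 and 6.34% in oocytes. It took at most 3.20% in any library from 1-cell on, and no change of its share was called.

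Sf1 and Sf3b3 each had a merged transcript that is a piece of an annotated one. The 4-exon stretch of Sf1 (TCONS_00010150, contained in ENSMUST00000131252) took 20.1 to 28.4% of Sf1 TPM in oocytes, 24.6 to 42.6% in all later libraries and 40.8 and 45.9% in sperm. Neither Sf1 transcript changed its share past the threshold at a transition. From 1-cell to 2-cell the 13-exon transcript went from 8.32 and 5.85 to 325.5 and 22.6 TPM, and the 4-exon one from 3.08 and 3.50 to 110.5 and 12.6 TPM. The single-exon transcript of Sf3b3 (TCONS_00020424) took 63.9 and 67.2% in oocytes and 34.9 and 10.5% at 1-cell, with both oocyte libraries above both 1-cell libraries. That difference (-1.99 ± 0.56) did not pass the threshold (adjusted p = 0.31). In all isoform comparisons other than 1-cell to 2-cell none of the 10 tested isoforms of these genes was called, beside 0.134% of all isoforms from oocyte to 1-cell. The share of all isoforms called was 0.211% at the step to the 4-cell stage, 0.307% at the next and 0.211% at the step to the blastocyst. Unadjusted p was under 0.05 for 2 of them, those of Sf3b3 from oocyte to 1-cell.

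**Figure D4:**
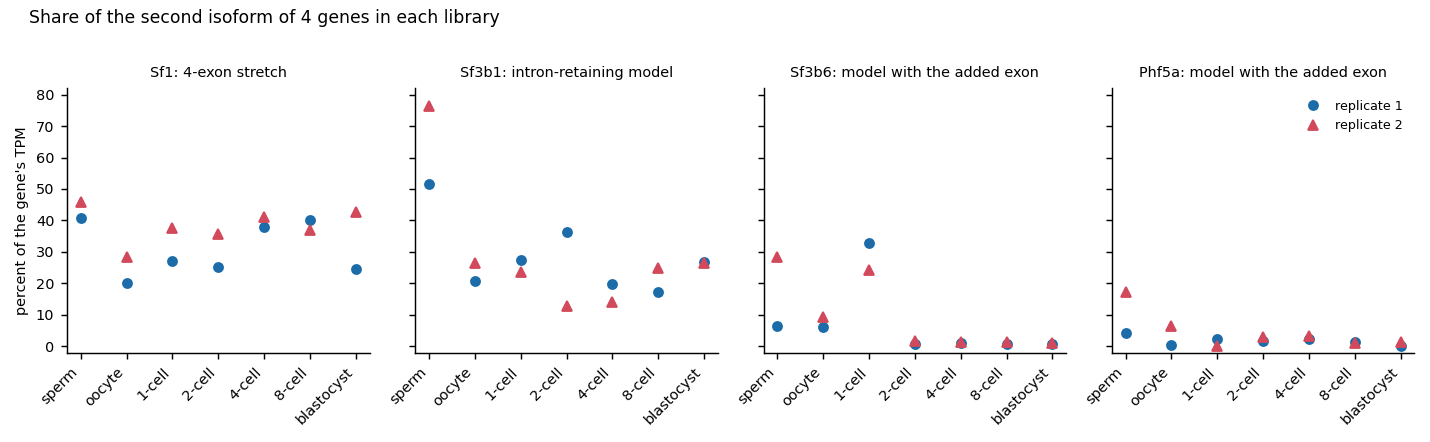
Percent of the gene's TPM taken by 1 isoform of Sf1 (a 4-exon stretch), Sf3b1 (intron-retaining model), Sf3b6 and Phf5a (models with an added exon), with replicate 1 as circles and replicate 2 as triangles for each of 7 stages. The Sf3b6 isoform lies between 24.4 and 32.9% at 1-cell and at or below 1.64% from 2-cell on, and the Sf3b1 model is highest in sperm (51.6 and 76.5%).

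Sf3b5 is a single-exon gene in GENCODE, and 5 of the 6 pools that held it had a single-exon transcript. The 4-cell pool held a spliced form instead, with exons at chr10:12992244-12992322 and chr10:12993604-12993755 joined to chr10:13008295-13009183. This 3-exon form alone represents Sf3b5 in the merged set (TCONS_00001487), so reads of the single-exon mRNA can be counted only there. Sf3b5 drops out when transcripts that share no annotated intron are left out.

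The number of alternative splicing events (skipped exons, alternative splice sites, first and last exons, retained introns and mutually exclusive exons) rebuilt from each long-read pool was 946 for oocytes and 1102 for the 1-cell pool. The 2-cell pool gave 993 events, the 4-cell pool 1279, the 8-cell pool 1227 and the blastocyst pool 848. The pools differed in the number and length of their reads, and the part of that in the event numbers was not tested. Over these 6 stages the mean log2 level of Phf5a had a Pearson r of 0.895 and a Spearman rho of 0.714 with the event number. The study singled out Phf5a for this relation on these samples, so r is a description. Without the 4-cell and 8-cell stages, the farthest from the median level, r was 0.635. With replicate 1 alone it was 0.466 and with replicate 2 alone 0.858. For events per long-read transcript it was 0.672. The other 8 genes had r between -0.09 (Sf3b5) and 0.609 (Sf3b3). For Sf1, r was 0.182.

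**Figure D5:**
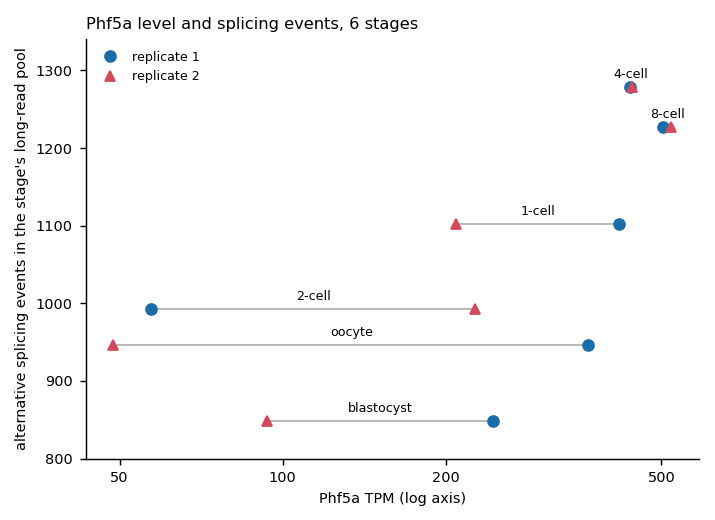
Phf5a TPM (log axis) against the number of alternative splicing events in the long-read pool of the same stage, for 6 stages from oocyte to blastocyst, with replicate 1 as circles, replicate 2 as triangles and a line joining them. The 4-cell (1279 events) and 8-cell (1227) stages have the most events and the highest Phf5a, and the oocyte replicates (366 and 48.7 TPM) span most of the range of the other stages.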

How the data were processed

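The authors mapped long reads to mm10 with GMAP, merged the stages with Cuffmerge and deposited exon coordinates. TPM, as deposited, came from the authors' salmon runs on the merged and on each stage's own transcripts, from amplified cDNA of 2 batches per stage. Gene TPM was the sum over transcripts assigned to GENCODE vM21 (the methods name vM20) by exon overlap on the same strand. Genes with at least 1 TPM in 2 libraries were tested with limma 3.58.1 (R 4.3.3, eBayes with a trend) on log2(TPM + 1), with stage as the only term. A change on this scale understates that of low genes. Isoform shares were tested as log2 of isoform + 1 over other isoforms + 1. Splicing events were rebuilt with Python 3.11.15. All 10 genes were named, with values for each except Sf3a2, which had no merged transcript. Isoforms were named where their mean share reached 10% in a stage or GENCODE lacks them. Of the lists, the 2 largest rises and falls called were named. The genes and lists were chosen with earlier results of these data known. The 8-cell titles and file names number the replicates in opposite ways, and the titles were followed. No count test was run, since TPM keeps no depth. The tests were tried on simulated data. Alternatives were another pseudocount, other filters, quantile normalization, 4-library fits, a replicate block, a spread weighted by stage, intron-sharing transcripts, and each library left out.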

Additional observations from a re-analysis of the deposited data

How the results depend on the processing

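Of the counts of called genes and isoforms and the Phf5a correlation, 120 values under alternatives stayed within 1.5 times or within the replicate spread and 18 did not. From 1-cell to 2-cell the count of 3 genes became 1 with the spread weighted by stage, and 1 to 2 when a library was left out. From oocyte to blastocyst the count of 6 became 2 with quantile normalization, and 2 to 4 with a library left out. From sperm to oocyte the count of 3 became 5 with quantile normalization, and 0 to 3 with a library left out. From 2-cell to 4-cell it was 0 to 2 with a library left out. For isoform shares from 1-cell to 2-cell the 2 calls became 0 with only the 4 libraries and 0 with the weighted spread. Fits with a library left out did not all keep them. With a mean of at least 5 TPM required, the Sf3b6 isoform with the added exon fell below the filter, so neither of the 2 was tested. The cause of the other changes was not tested. The Phf5a correlation of 0.895 was 0.466 with only replicate 1 of every stage and 0.858 with only replicate 2. Of 1227 values of single genes and isoforms, 53 called ones lost the threshold and 7 passed it newly. No called value changed sign, while 81 values called in neither fit did. Deviations of same-numbered libraries correlated above 0.1 in 5 of 15 pairs of stages (r from -0.55 to 0.48). Other pairs were negative, such as 2-cell with blastocyst (-0.55) and 2-cell with 8-cell (-0.37). Whether batches run across stages under unlike replicate numbers was not tested. With the replicate block, 3 genes were called from 1-cell to 2-cell (2894 in place of 3227 over all genes) and 4 from oocyte to blastocyst. Counts over all genes moved more. From oocyte to 1-cell 38 genes were called, and 9 with quantile normalization (55.6% of calls higher in place of 86.8%), 98 with only the 4 libraries, 86 with the weighted spread, 21 with intron-sharing transcripts and 1 with the block. From 1-cell to 2-cell 3227 became 2080 with only the 4 libraries and 1531 with the weighted spread. From 2-cell to 4-cell 340 became 1076 with quantile normalization (56.7% higher in place of 46.5%), 87 with the block, 0 with only the 4 libraries and 1 with the weighted spread. From 4-cell to 8-cell 167 became 261 with quantile normalization (69.3% higher in place of 46.1%), 89 with the block, 3482 with only the 4 libraries and 3921 with the weighted spread, none of them among the 9 genes. From 8-cell to blastocyst 300 became 555 with the weighted spread. Of all isoform shares, the 1630 called from 1-cell to 2-cell became 23 with only the 4 libraries and 670 with the weighted spread. The unknown depth behind each TPM and 2 libraries per stage limit every value.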
